A study of Mus musculus with 8 samples.

Results

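The promoters of 80 ribosomal protein genes were examined for binding of the glucocorticoid receptor (GR) and of the forkhead factor FOXO1 in mouse liver. The genes are the protein-coding genes of the GENCODE M21 annotation (mm10) named Rpl or Rps followed by a number and at most 1 letter, together with Rpsa, Rplp0, Rplp1 and Rplp2. They make up 80 of 21911 protein-coding genes on chromosomes 1 to 19, X and Y, 31 of the small and 49 of the large ribosomal subunit, and lie on 19 chromosomes. A promoter held a peak when a peak of the list, that is 1 summit called in it, shared at least 1 base with the window of 1 kb either side of the gene start.

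The livers came from adult male C57BL/6J mice on regular chow. Control mice (ctrl.) ate freely until a final period in which food was given only at night. Calorically restricted mice (cal. res.) were brought down in steps to a reduced ration, given at lights off. Per the study, the livers of all groups were collected at lights off, the daily peak of glucocorticoid secretion, so other times of day are not covered. Corticosterone-treated mice (CORT) were fed at night and injected daily with corticosterone, the main glucocorticoid hormone of mice, for the last week. Each group had 2 GR libraries. The study's methods call them biological replicates, and p-values below rest on the spread between these libraries. The FOXO1 list was called by the authors on 2 merged cal. res. libraries and therefore has no replicate spread.

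Ribosomal proteins form the small and large subunits of the cytosolic ribosome, and their genes are among the most strongly and evenly transcribed in every cell. Their promoters are compact, lie in open chromatin, and commonly start transcription within a run of pyrimidines, the 5′ terminal oligopyrimidine tract through which mTOR adjusts translation to nutrient supply. GR, once bound by hormone, recognises a palindrome of 2 hexamers of the type AGAACA, and FOXO1 recognises the forkhead motif. Such promoters serve here as a reference for how often an open promoter enters a peak list.

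The whole lists differed in ways that bear on every count below. They held 41400 and 13667 peaks for ctrl. replicates 1 and 2, 24915 and 20444 for cal. res., and 33451 and 48060 for CORT, and 8394 for FOXO1. The library names in the labels come in 2 styles, letters first for ctrl. replicate 2 and both cal. res. libraries, and digits first for ctrl. replicate 1 and both CORT libraries. What the styles stand for is not stated. Name style and group cannot be told apart between cal. res. and CORT, and only ctrl. has a library of each style. Read totals are not in the lists, so depth is unknown. The lowest local background rebuilt from each GR list was 1.86 to 2.12 fragments in the libraries named letters first. It was lower, at 0.806 to 1.80, in those named digits first. Of 8 hepatocyte markers, 7 or 8 had a promoter peak in every GR list, and none of 4 Kupffer cell and 4 endothelial markers did. Among 4 stellate markers only Reln did, in ctrl. replicate 1, and among 4 cholangiocyte markers only Sox9 did, in the 3 libraries named digits first.

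The letters of a few promoters are shown before the counts, to put promoters found in every GR list beside one found in none. Rpl27 held the promoter with the highest mean rank among those found in all 6 GR lists. Rpl13a, Rpl27a and Rpl37 were also found in all 6, Rplp0 had the highest FOXO1 rank, and Rpl3l, a paralog used in striated muscle, had no peak in any list. Each sequence is taken from the RefSeq promoter table (GRCm38.p6), which held 60 of the 80 genes, runs 5′ to 3′ on the gene's strand and ends at the base before the first annotated start. Capitals mark matches to the motifs searched.
Rpl27 (chr11:101442005-101442244, plus strand): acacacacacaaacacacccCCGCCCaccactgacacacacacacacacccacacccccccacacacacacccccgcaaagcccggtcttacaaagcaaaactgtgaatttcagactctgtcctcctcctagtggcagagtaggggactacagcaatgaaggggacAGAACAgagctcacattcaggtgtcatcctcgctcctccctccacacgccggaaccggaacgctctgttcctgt
Rpl13a (chr7:45128762-45128995, minus strand): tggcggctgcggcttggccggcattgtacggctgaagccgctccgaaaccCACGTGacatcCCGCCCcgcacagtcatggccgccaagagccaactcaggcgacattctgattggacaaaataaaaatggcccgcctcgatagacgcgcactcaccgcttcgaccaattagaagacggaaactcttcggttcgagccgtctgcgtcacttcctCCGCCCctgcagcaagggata
Rpl27a (chr7:109518945-109519146, plus strand): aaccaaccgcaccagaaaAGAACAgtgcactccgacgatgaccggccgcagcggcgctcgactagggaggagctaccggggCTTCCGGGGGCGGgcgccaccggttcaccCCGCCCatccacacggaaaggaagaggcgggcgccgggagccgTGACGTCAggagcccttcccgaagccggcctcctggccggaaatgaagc
Rpl37 (chr15:5116373-5116612, plus strand): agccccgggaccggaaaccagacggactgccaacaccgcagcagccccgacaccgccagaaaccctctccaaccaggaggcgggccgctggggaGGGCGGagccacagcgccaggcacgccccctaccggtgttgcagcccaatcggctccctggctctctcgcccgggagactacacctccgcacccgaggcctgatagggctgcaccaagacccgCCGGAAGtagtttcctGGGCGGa
Rplp0 (chr5:115559227-115559466, plus strand): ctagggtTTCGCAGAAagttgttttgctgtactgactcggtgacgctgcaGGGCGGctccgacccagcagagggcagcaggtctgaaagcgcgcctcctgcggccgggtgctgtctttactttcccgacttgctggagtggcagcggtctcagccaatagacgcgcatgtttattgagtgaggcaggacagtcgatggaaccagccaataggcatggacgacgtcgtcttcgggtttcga
Rpl3l (chr17:24727580-24727819, plus strand): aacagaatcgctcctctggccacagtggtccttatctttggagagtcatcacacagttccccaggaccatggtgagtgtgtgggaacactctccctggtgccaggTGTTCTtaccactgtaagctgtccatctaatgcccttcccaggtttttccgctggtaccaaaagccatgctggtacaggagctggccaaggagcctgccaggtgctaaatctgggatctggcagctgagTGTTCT
In Rpl27 the capitals are a GC box and the GR hexamer AGAACA. In Rpl13a they are an E-box and a pair of GC boxes, in Rpl27a the GR hexamer, an ETS motif run together with a GC box, another GC box and a cyclic AMP response element, and in Rpl37 GC boxes and an ETS motif. Rplp0 carried a STAT motif and a GC box, and Rpl3l carried the GR hexamer on the reverse strand at both places in capitals.

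Across the 80 promoters, from 250 bp before to 50 bp after the GENCODE gene start and on both strands, the ETS motif CCGGAAG was found in 22 (27.5%), against 10.8% of all protein-coding genes. The YY1 motif AAGATGGC was found in 5 (6.25% against 2.91%), the cyclic AMP response element TGACGTCA in 5 (6.25% against 2.43%), and the E-box CACGTG in 11 (13.8% against 7.74%). The GC box GGGCGG was found in 36 (45% against 43%), the NRF1 motif GCGCATGC in 3 (3.75% against 3.71%), and the TATA box TATAAA in 8 (10% against 12.6%). The GR hexamer was found in 13 (16.2% against 16.9%), the forkhead motif TGTTTAC in 1 (1.25% against 3.05%) and the STAT motif TTCNNNGAA in 3 (3.75% against 8.38%). The palindromic GR element with at most 1 mismatch was found in none of the 80, against 0.146% of all genes. An ETS match can share bases with a GC box, and in Rpl27a the pair abut. A palindromic match can hold the hexamer. At the RefSeq start, a run of at least 7 pyrimidines overlapped the first bases in 23 of the 60 genes in the table (38.3%), against 12.5% of the 16522 protein-coding genes it held. Median GC content of the window was 55.2%, against 55% for all genes, and the median observed-to-expected ratio of CpG was 0.815 against 0.524. In 81 oxidative phosphorylation genes, taken up below, this ratio was 0.782. Their promoters held the ETS motif in 19.8%, the YY1 motif in 8.64%, the cyclic AMP response element in 6.17% and the E-box in 8.64%. The pyrimidine run was found at 13.6% of those in the table.

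Most ribosomal protein promoters were found in some GR lists but not in all. A GR peak was present at 67 of 80 promoters in ctrl. replicate 1 and at 29 in ctrl. replicate 2. It was present at 31 and 25 in cal. res. replicates 1 and 2, and at 63 and 70 in CORT replicates 1 and 2. The same count over all 21911 protein-coding genes gave 41.5% and 22.3% for ctrl., 27.1% and 21.4% for cal. res., and 38.3% and 39.8% for CORT. The members' shares were 83.8% and 36.2%, 38.8% and 31.2%, and 78.8% and 87.5% in the same order. They were therefore 1.43 to 1.63 times the share of all genes in the 3 libraries named letters first, and 2.02 to 2.20 times in the 3 named digits first. By subunit, 27 of 31 small and 40 of 49 large subunit promoters had a peak in ctrl. replicate 1, and 27 of 31 and 43 of 49 in CORT replicate 2. The shares stood farthest apart in ctrl. replicate 2, at 14 of 31 (45.2%) against 15 of 49 (30.6%), where the small subunit had the lower median percentile (25.5 against 49.2).

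**Figure D1:**
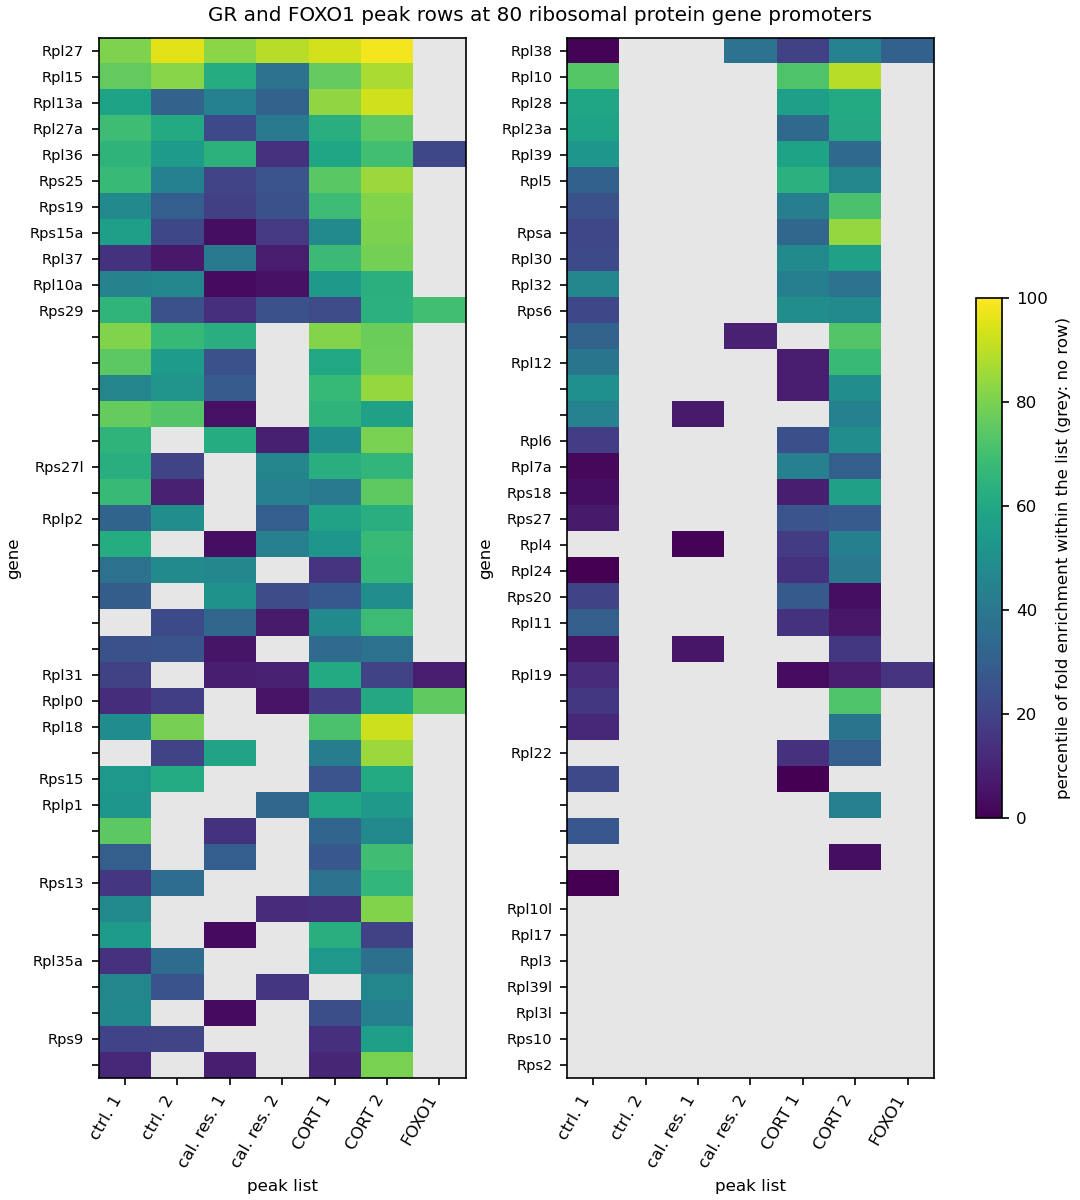
Heat map of the 80 genes (rows, in order of the number of GR lists and then of mean percentile, labelled where the text names the gene) against the 6 GR lists and the FOXO1 list (columns). Colour gives the percentile of fold enrichment of the strongest peak within its list and grey means no peak; the ctrl. replicate 2 and cal. res. columns are mostly grey, with 29, 31 and 25 genes coloured.

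By the rule that both libraries of a group hold a peak, 27 promoters counted in ctrl., 16 in cal. res. and 62 in CORT. Over all genes this rule gave 21.7%, 18.3% and 34%, so the members' shares of 33.8%, 20% and 77.5% stood 1.55, 1.09 and 2.28 times as high. On average a library had 48 ± 26.9 members with a peak in ctrl., 28 ± 4.24 in cal. res. and 66.5 ± 4.95 in CORT (mean ± SD, n = 2 each). The ctrl. libraries differed from each other by more than the cal. res. mean differed from the ctrl. mean, or the CORT mean from it. Within the name style shared with cal. res., the ctrl. library had 29 members against 31 and 25. Within the style shared with CORT, it had 67 against 63 and 70. In both styles the ctrl. value lay between those of the treated libraries.

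Peak presence split by group at few promoters other than between CORT and cal. res. A peak in both CORT libraries and in neither cal. res. library was seen at 26 promoters, against 7.96% of all genes, and 20 of the 80 had a peak in all 3 libraries named digits first and in none of the other 3, against 4.81% of all genes. Those 20 included Rps6, whose protein is the classic substrate of S6 kinase, Rpl5 and Rpl11, which bind the p53 regulator Mdm2, and Rpsa, the laminin receptor precursor. Others among them were Rpl7a, Rpl12, Rps27, Rps20, Rpl6, Rpl32, Rpl28, Rpl23a, Rpl19, Rpl30, Rpl24, Rps18, Rpl39 and Rpl10, and the 26 also took in Rpl18, Rpl22, Rpl35a, Rps13, Rps15 and Rps9. A peak in both CORT and neither ctrl. library was found at Rpl4 and Rpl22 (2 promoters, 1.59% of all genes). A peak in both ctrl. and neither cal. res. library was found at 5, Rpl18, Rpl35a, Rps9, Rps13 and Rps15 (2.77% of all genes). No member had a peak in both ctrl. and neither CORT library (0.319% of all genes), in both cal. res. and neither ctrl. library (0.146%), or in both cal. res. and neither CORT library (0.0913%). Because all cal. res. libraries are of one name style and all CORT libraries of the other, the part of the name style in the count of 26 cannot be told apart from that of the treatment.

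Counted over lists, 7 of 80 members had no peak in any GR list and 11 had a peak in all 6, against 52.9% and 13.3% of all genes. The remainder lay mostly between: 54 of 80 (67.5%) had a peak in 3 to 5 lists, against 23.5% of all genes. The share in all 6 lists, 13.8%, was thus near the background, while the share in none, 8.75%, was below it.

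The 7 without a GR peak fell into 2 kinds. Rpl3l, Rpl10l and Rpl39l are paralogs known from muscle or from testis, and the nearest summit of any GR list lay at -3400 bp from the Rpl3l start, at 22548 bp from that of Rpl39l and at 1111208 bp from that of Rpl10l. Rpl3, Rps2, Rps10 and Rpl17 are ribosomal protein genes of the ordinary set, and each has an annotated transcript start more than 1 kb inside the gene. Rpl3l also has one, 4865 bp inside, so this trait alone does not separate the 2 kinds. At Rpl3 the only basic-set transcript starts 8462 bp inside the annotated gene, and summits lay 19 bp past that start in ctrl. replicate 1 and 94 bp past it in CORT replicate 1. At Rps2, summits in ctrl. replicate 2 and both CORT libraries lay at -186 to -90 bp from a transcript start. When any transcript start was allowed, only the 3 tissue-restricted paralogs had no GR peak. The stress-induced paralog Rps27l, a p53 target, had a peak in 5 of 6 lists, in all but cal. res. replicate 1.

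The peaks at ribosomal protein promoters ranked lower than those at other promoters. The strongest peak of each promoter was placed by its percentile of fold enrichment among all peaks of its own list, since fold enrichment is comparable only within a list. The median percentile of the members with a peak was 38.9 and 35.6 (ctrl.), 20.9 and 24.7 (cal. res.) and 43 and 60.7 (CORT). All promoters with a peak had medians of 56.8 and 44.7, 38 and 37.9, and 59.1 and 65.9 in the same lists. The members' median was the lower in each of the 6 lists. Strengths also varied among the members, whose middle range between the quartiles ran from the 5.87th to the 45th percentile in cal. res. replicate 1 and from the 43.4th to the 75th in CORT replicate 2. Between the CORT libraries the percentiles of 62 members had a Spearman correlation of 0.445, against 0.665 for 7447 promoters. Between the cal. res. libraries it was 0.203 for 16 members against 0.660 for 4003. The ctrl. libraries went the other way, with 0.538 for 27 members against 0.487 for 4756 promoters. These points share their libraries and local background. By group, the mean of the library medians was 37.2 ± 2.32 in ctrl., 22.8 ± 2.70 in cal. res. and 51.8 ± 12.5 in CORT (SD, n = 2). The hepatocyte markers had medians of 78.8 to 96.1.

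**Figure D2:**
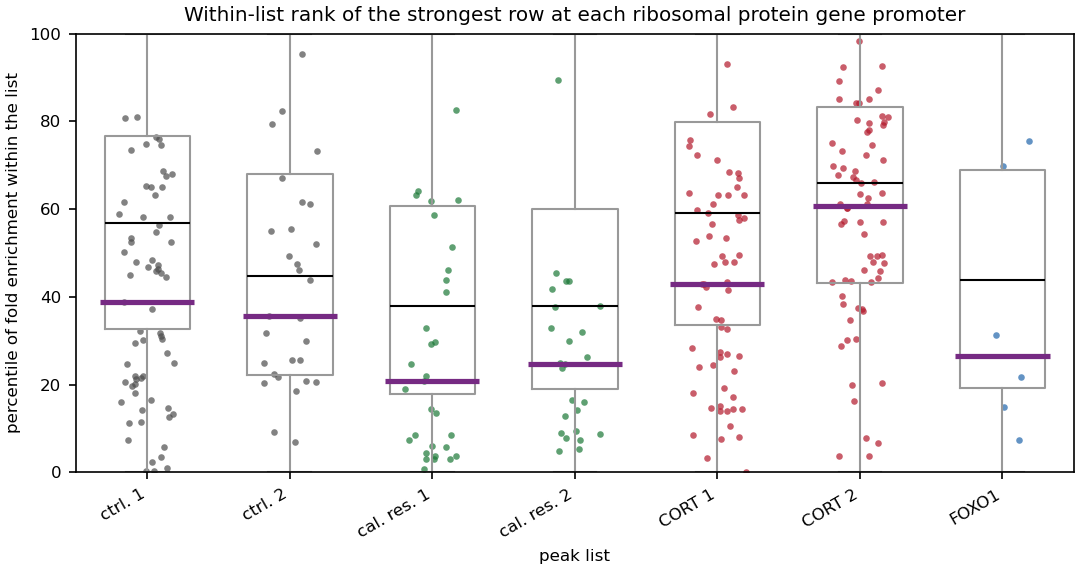
Percentile of fold enrichment within each list for the strongest peak at each ribosomal protein promoter (points, 1 per gene with a peak, coloured by group), with their median as a thick line. Grey boxes give the quartiles of all protein-coding promoters with a peak, with the median in black and whiskers to the last value within 1.5 box lengths; the thick line lies below the black line in all 7 lists, at 38.9 against 56.8 in ctrl. replicate 1.

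In fragments, the peaks were small. Pileup and local background at the summit, rebuilt from fold enrichment and p-value, had medians of 13 fragments over 1.71 in ctrl. replicate 1 and 16 over 2.89 in ctrl. replicate 2. The cal. res. libraries had 14 over 2.53 and 13 over 2.68, and the CORT libraries 11 over 1.10 and 20.5 over 2.42. The lowest pileup called was 6 fragments and the highest 129, both in libraries named digits first. Median fold enrichment lay between 3.90 in cal. res. replicate 2 and 6.19 in CORT replicate 2. At q of at most 1e-05, 36 and 9 (ctrl.), 12 and 3 (cal. res.) and 36 and 56 (CORT) members had their strongest peak within that limit. All genes gave 29.7% and 9.19%, 15.6% and 9.91%, and 28% and 31%, against members' shares of 45% and 11.2%, 15% and 3.75%, and 45% and 70%. The members' shares were near the background in ctrl. replicate 2 and cal. res. replicate 1. They were below it in cal. res. replicate 2 and above it in ctrl. replicate 1 and both CORT libraries.

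The counts moved with list length. When every list was reduced to its 12458 regions of smallest p, the length of the shortest, members with a peak numbered 9 and 29 (ctrl.), 8 and 10 (cal. res.) and 20 and 27 (CORT). All genes then gave 15.9% and 22.3%, 11.5% and 12.4%, and 20.2% and 18.9%. The members' shares of 11.2% and 36.2%, 10% and 12.5%, and 25% and 33.8% lay below the background in ctrl. replicate 1, close to it in both cal. res. libraries, and above it in the other 3 libraries. The order of the ctrl. replicates turned, from 67 and 29 members to 9 and 29. By the rule of both libraries, 6 members counted in ctrl., 2 in cal. res. (Rpl15 and Rpl27) and 14 in CORT, against 12.7%, 8.16% and 14.6% of all genes.

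**Figure D3:**
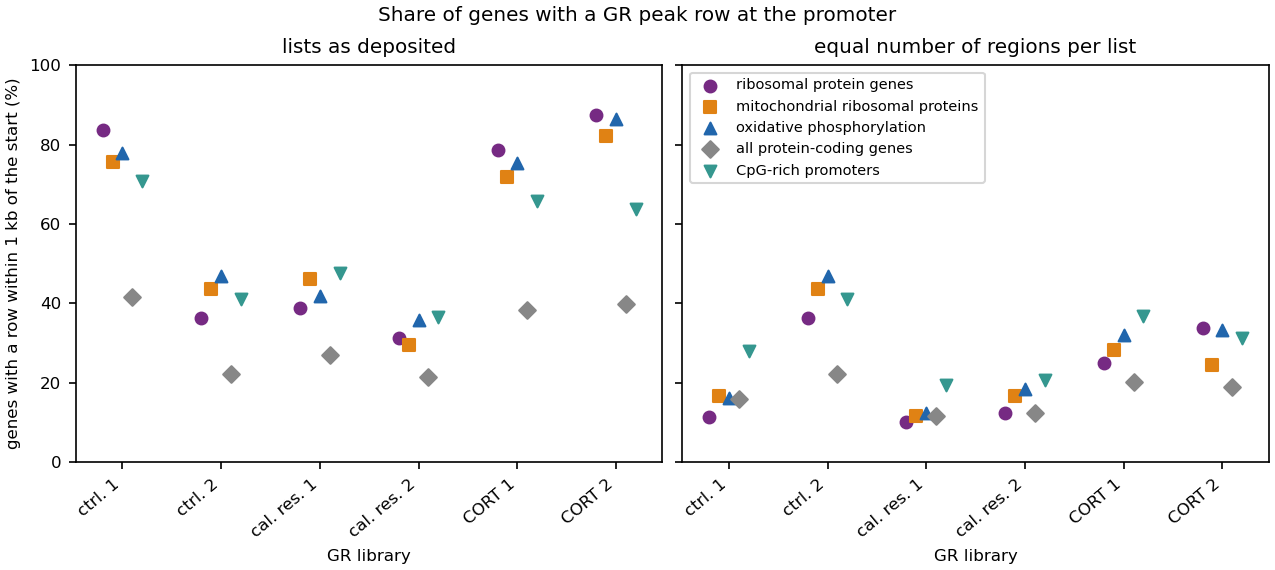
Share of genes (%) with a GR peak within 1 kb of the gene start in each of the 6 libraries, for 5 gene sets, with the lists as deposited (left) and with 12458 regions per list (right). Ribosomal protein genes (purple circles) stand at 31.2% to 87.5% on the left and 10% to 36.2% on the right, close to oxidative phosphorylation genes.

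Other housekeeping genes gave shares in a similar range, while their ranks differed between sets. Of 81 oxidative phosphorylation genes, which encode the respiratory chain and ATP synthase, a peak was found at 77.8% and 46.9% (ctrl.), 42% and 35.8% (cal. res.) and 75.3% and 86.4% (CORT). Of 78 mitochondrial ribosomal protein genes the shares were 75.6% and 43.6%, 46.2% and 29.5%, and 71.8% and 82.1%. Of 35 translation factor genes they ran from 54.3% in both cal. res. libraries to 91.4% in CORT replicate 2, and of 36 ribosome biogenesis genes from 22.2% in ctrl. replicate 2 to 88.9% in CORT replicate 2. Median percentiles of the oxidative phosphorylation genes were 37.6 and 30.8 (ctrl.), 28.6 and 26.4 (cal. res.) and 44.4 and 61.3 (CORT). They lay below the members' medians in both ctrl. lists and above them in the cal. res. and CORT lists. Those of the translation factor genes were 60.6 and 35.9 (ctrl.), 40.4 and 29.5 (cal. res.) and 64 and 69 (CORT). They lay above the members' medians in every list. The 8015 genes with a CpG-rich promoter, a comparison chosen after these values were seen, had peaks in 70.8% and 41.1% (ctrl.), 47.5% and 36.5% (cal. res.) and 65.9% and 63.8% (CORT) of cases. The members' share lay above that of CpG-rich promoters in the 3 libraries named digits first and below it in the other 3. With equal numbers of regions CpG-rich promoters had 28% and 41.1% (ctrl.), 19.4% and 20.8% (cal. res.) and 36.7% and 31.3% (CORT), and the members' share was then below theirs in all libraries but CORT replicate 2. Among the members, 37 promoters were CpG-rich by this measure and 43 were not, so these comparisons set a mixed set against CpG-rich promoters alone. The 37 had peaks in 94.6% and 48.6% (ctrl.), 48.6% and 37.8% (cal. res.) and 86.5% and 97.3% (CORT) of cases. This was above all CpG-rich promoters in each list, by little in cal. res. The other 43 had 74.4% and 25.6%, 30.2% and 25.6%, and 72.1% and 79.1%, above genes without a CpG-rich promoter in each list. With equal numbers of regions, the 37 fell below all CpG-rich promoters in ctrl. replicate 1 (8.11%) and both cal. res. libraries (13.5% each). Ribosomal proteins outside the naming rule behaved within the same range, with Fau peaks in all 6 GR lists, Rack1 in 4 and Rps3a1 in 3.

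Summits sat at the start of the gene. The median distance of the strongest summit from the gene start, averaged over the 6 libraries, was -19.2 ± 27.2 bp (SD, n = 6). Of the members' summits, 77.4% to 88.6% lay within 250 bp of it, against 65.7% to 74.3% for all promoters with a peak. All promoters had library medians of -28 to 26 bp, also near the start. Without the sign, the median was 79.5 to 119 bp for members and 133 to 159 bp for all promoters. The window of 1 kb limits these distances in advance. Among 285 strongest summits a member counts once per library with a peak. Of these, 153 (53.7%) lay upstream of the gene and 83 (29.1%) in an untranslated or noncoding exon. A further 44 (15.4%) lay in an intron and 5 (1.75%) in coding sequence. The same breakdown was not made for all genes. A second gene started within 1 kb at 15 of the 80 promoters, and there the peak cannot be assigned to either gene. Within 200 bp around the summit the GR hexamer was found at 9 of 67 and 3 of 29 members (ctrl.), 4 of 31 and 2 of 25 (cal. res.) and 7 of 63 and 11 of 70 (CORT), that is 8% to 15.7%, against 7.18% to 9.94% of all promoters with a peak. The palindromic GR element with at most 1 mismatch was at none of the members' summits, and at 0.0769% to 0.299% of all promoter summits. The ETS motif was at 19.4% to 25.7% of the members' summits, against 11.6% to 13.2% of all.

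Rpl27 (ENSMUSG00000063316.13, chr11:101442298-101445529, plus strand), a protein of the large subunit, had the highest-ranked peak of all members in 5 of the 6 GR lists. Its fold enrichment was 9.60 and 10.6 (ctrl.), 10.4 and 11.0 (cal. res.) and 19.1 and 33.4 (CORT), at percentiles 80.8 and 95.3, 82.6 and 89.4, and 93.2 and 98.4. In CORT replicate 2 the summit held 129 fragments over a background of 2.89. All 6 summits lay at -47 to -20 bp from the GENCODE gene start, just past the end of the sequence shown above, whose AGAACA begins at -74 from that end. Percentiles in the ctrl. and CORT groups overlapped, and both cal. res. values lay between those of ctrl.

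Rpl15 (ENSMUSG00000012405.16, chr14:18267823-18271391, minus strand), also of the large subunit, followed, at fold enrichments of 8.56 and 6.51 (ctrl.), 6.70 and 4.39 (cal. res.) and 10.2 and 12.7 (CORT). Its summits lay 121 to 224 bp inside the gene, in an intron, and Nkiras1 starts within the same window. Rpl13a (ENSMUSG00000074129.14, chr7:45125558-45128761, minus strand), known outside the ribosome for silencing inflammatory mRNAs, had fold enrichments of 6.28 and 3.92 (ctrl.), 5.25 and 4.18 (cal. res.) and 12.5 and 16.9 (CORT). Both CORT values stood above the other 4, at percentiles 83.3 and 92.7 against 31.7 to 58.1. The summit lay at -235 to -177 bp in 4 libraries, toward the upstream end of the Rpl13a sequence above, and at -894 and -855 bp in ctrl. replicate 1 and cal. res. replicate 1.

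Rpl36 (ENSMUSG00000057863.6, chr17:56613416-56614243, plus strand) had its peak far upstream. Its 6 GR summits lay at -748 to -647 bp from the start and its FOXO1 summit at -763 bp. Fold enrichment was 6.97 and 4.73 (ctrl.), 6.99 and 3.49 (cal. res.) and 7.23 and 7.49 (CORT), and the within-list percentiles of the groups overlapped, at 65.1 and 55.4 (ctrl.), 64.2 and 14.2 (cal. res.) and 58.7 and 69.8 (CORT). The other members of the 11, Rpl27a, Rps25, Rps19, Rps15a, Rpl37, Rpl10a and Rps29, had mean percentiles from 55.3 down to 35.9. Rps19, the gene most often mutated in Diamond-Blackfan anaemia, had percentiles of 47.9 and 29.9 (ctrl.), 19 and 24.7 (cal. res.) and 68.4 and 81.2 (CORT), so that its CORT values lay above and its cal. res. values below those of ctrl. Rpl10a stood at 3.05 and 4.92 in cal. res. against 44.9 and 46.1 in ctrl. and 54 and 63.4 in CORT. These are ranks in lists of different length and name style. All promoters with a peak also ranked lower in cal. res. (medians of 38 and 37.9) than in ctrl. (56.8 and 44.7) or CORT (59.1 and 65.9). As quantile-normalised log2 fold enrichment, compared below, Rps19 differed from ctrl. by 0.04 ± 0.35 in cal. res. and 0.34 ± 0.35 in CORT (± SE). Rpl10a differed from ctrl. by -0.59 ± 0.36 in cal. res., and none of these differences passed the test.

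**Figure D4:**
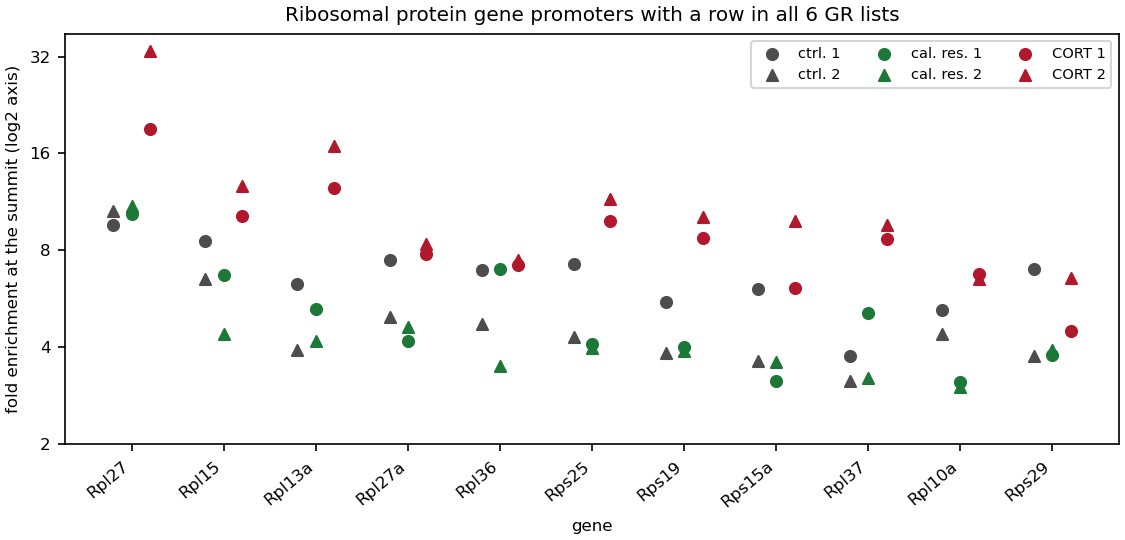
Fold enrichment at the strongest summit (log2 axis) of the 11 ribosomal protein promoters with a peak in all 6 GR lists, with circles for replicate 1 and triangles for replicate 2 of each group. Values are as deposited and not scaled between libraries; the CORT points of Rpl27 stand at 19.1 and 33.4.

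Rpl10 (ENSMUSG00000008682.13, chrX:74270812-74273135, plus strand) ranked highest among the 20 promoters found in the libraries named digits first alone. It had no peak in any library named letters first, and ranked at the 73.5th percentile in ctrl. replicate 1, the 72.4th in CORT replicate 1 and the 89.3th in CORT replicate 2, with 16 to 38 fragments at the summit. Rpsa ranked at 21.3, 33.1 and 84.2 in the same libraries, Rps6 at 21.6, 49.4 and 48, Rpl5 at 31.1, 63.8 and 46, and Rpl11 at 30.2, 14.5 and 6.57. The acidic stalk proteins of the large subunit were found more widely. Rplp0 had a peak in 5 lists, at percentiles of 5.26 to 60.3, Rplp2 in 5, at 29.9 to 62.7, and Rplp1 in 4, at 33 to 59.1.

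The strength of GR binding was compared between groups for promoters with a peak in all 6 lists, 2919 promoters of which 11 were members, as quantile-normalised log2 fold enrichment. None of the 11 passed in any comparison (limma, Benjamini-Hochberg adjustment over the 2919). In cal. res. against ctrl., 6 promoters passed (0.206%), in CORT against ctrl. 11 (0.377%), and in cal. res. against CORT 21 (0.719%), while 10.8%, 11.8% and 16.8% of promoters had an unadjusted p under the same limit of 0.05. At the unadjusted limit 0, 1 and 0 members passed. In cal. res. against ctrl., the largest positive differences were those of Rpl37 (0.47 ± 0.36 log2, SE), Rpl13a (0.23) and Rpl27 (0.11), and the largest negative ones those of Rpl10a (-0.59 ± 0.36), Rps15a (-0.28) and Rpl15 (-0.28), with a lowest adjusted p of 0.577 for Rpl10a. In CORT against ctrl., they were Rpl37 (0.74 ± 0.36), Rpl13a (0.71) and Rps19 (0.34), and Rps29 (-0.36 ± 0.36), Rpl27a (-0.29) and Rpl15 (-0.29), with a lowest adjusted p of 0.424 for Rpl37. In cal. res. against CORT, they were Rpl36 (0.27 ± 0.37), Rps29 (0.22) and Rpl27a (0.06), and Rpl13a (-0.49 ± 0.35), Rpl10a (-0.47) and Rps25 (-0.40), with a lowest adjusted p of 0.525 for Rpl13a. The Rpl36 difference turned to -0.72 on a percentile score, to -0.18 with the name style as a term and to -0.18 without cal. res. replicate 1. These are signs and sizes of differences that did not pass the test. The median difference of the members was -0.15, 0.12 and -0.27, and that of all 2919 promoters 0.01, -0.02 and 0.02. Both comparisons with ctrl. share the ctrl. libraries. With the name style as a term, which only ctrl. separates from the group, the members' medians were -0.31, 0.21 and -0.58, and again none passed. The sign of the members' median was not stable in the comparisons with ctrl. In cal. res. against CORT, where name style and group cannot be told apart, it was negative under every setting. It was -0.07 with median centring and -1.46 on a percentile score, where all promoters had -0.88. In CORT against ctrl. it was -0.07 with median centring, -0.34 without ctrl. replicate 1 and -0.19 without CORT replicate 2, and in cal. res. against ctrl. it was 0.12 without ctrl. replicate 2.

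FOXO1 was found at 6 of the 80 promoters (7.5%), close to the 6.79% of all genes. The 6 were Rplp0, Rps29, Rpl38, Rpl36, Rpl19 and Rpl31, at FOXO1 percentiles of 75.6, 69.9, 31.2, 21.8, 15 and 7.43. Their median was 26.5, against 43.8 for all promoters with a FOXO1 peak. At Rplp0, which anchors the ribosomal stalk, the FOXO1 summit held 43 fragments over a background of 4.63 and lay at -143 bp from the start, within the Rplp0 sequence above. GR ranked there at the 5.26th percentile in cal. res. replicate 2 and had no peak in cal. res. replicate 1. At Rps29 the FOXO1 summit lay at -509 bp, and the cal. res. GR summits at -118 and -132 bp. The forkhead motif was within 200 bp around none of the 6 summits, against 14.3% of all promoters with a FOXO1 peak. All 6 had a GR peak in at least 3 lists, but only Rps29, Rpl31 and Rpl36 had one in both cal. res. libraries, the group from which the FOXO1 list came.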

How the data were processed

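GR and FOXO1 ChIP-seq peak lists from mouse liver were analysed, in 3 GR groups of 2 libraries (ctrl., cal. res., CORT) named by the sample titles, and 1 FOXO1 list from 2 merged libraries. Per the methods and the submitters' processing notes, the authors used BWA (mm10) for alignment, dropped duplicate and multiply mapped reads, ran MACS2 on read pairs and subtracted blacklisted regions with bedtools. Removal of multiply mapped reads can lower signal where ribosomal protein genes resemble their pseudogenes. Fold enrichment, deposited by the authors, is a ratio of pileup to local background at the summit with 1 added to each, and was ranked within lists only. Each peak's p-value and q-value were deposited on a -log10 scale. The largest q was 0.0994 to 0.0998 in the GR lists and 9.84e-06 in the FOXO1 list. Position columns were used as deposited.

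Pileup and background were rebuilt under fold = (pileup + 1) / (background + 1) with a whole pileup and the Poisson p, with a relative error of at most 5.28e-06 at the members' peaks. Promoters were compared with limma 3.58.1 in R 4.3.3 (3 groups, threshold 0.05), tested on simulated data. Python 3.11.15, pandas 2.3.3, NumPy 2.4.6, SciPy 1.17.1 and pysam 0.24.0 were used. Counts over a gene list were described beside the same counts over all genes. CpG-rich promoters had at least 55% GC and an observed-to-expected CpG ratio of at least 0.6.

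Members and lists were chosen with earlier results of these data known. Genes named were the paralogs and stalk proteins, Rps6, Rps19, Rpl5 and Rpl11, the members in all 6 lists by mean percentile, those in no list, those with FOXO1, those split by group, and the largest fitted differences. Rpl10, the sequences shown, the CpG-rich comparison and the palindromic element around summits were chosen after seeing the data. Same-numbered libraries did not deviate together (correlations of -0.07, -0.01 and 0.06 over 2919 promoters), so the replicate number was not used as a block. Windows, starts, thresholds, list length, scaling and each library left out were varied. Results for some genes are not reported here by name.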

Additional observations from a re-analysis of the deposited data

How the results depend on the processing

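Window width, choice of start and the summit inside the window kept the counts of members within 1.5 times. So did q of at most 0.01 and 1 summit per region. The FOXO1 count of 6 ran from 4 with a 250 bp window to 7 with any transcript start. The q limits could not change it, since the largest q of that list was 9.84e-06. At q of at most 1e-05, members in both libraries fell to 9 (ctrl.), 1 (cal. res.) and 31 (CORT), and the mean per library to 22.5 (ctrl.) and 7.5 (cal. res.). With equal numbers of regions, the first were 6, 2 and 14 and the second 19, 9 and 23.5, since fewer peaks remain in all lists but the shortest. A peak in either library gave 69 in ctrl. and 40 in cal. res. Leaving out a library gave 29 to 67, 25 to 31 and 63 to 70. The mean percentile of the ctrl. members moved to 39.9 with a 2000 bp window, 29.8 at q of at most 1e-05, 29.2 with equal numbers, 43.3 when ranked by p and 54.4 for members in all 6 lists. That of cal. res. moved to 19.2 at q of at most 1e-05 and 18.9 with equal numbers. That of CORT moved to 26.7 with equal numbers and 74.3 for members in all 6 lists. The mean distance moved to -51.25 bp with equal numbers. The cause of the moved percentiles and distance was not tested.

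No member passed in limma under any alternative, but the calls over all promoters (6, 11 and 21) moved widely. In cal. res. against ctrl. they numbered 2 (median centring), 0 (percentile score), 1 (p in place of fold), 1 (at least 1 library per group), 3 (window of 500 bp), 1 (equal numbers) and 31 (name style as a term), and 1 to 31 without a library, the 31 without ctrl. replicate 1. In CORT against ctrl. they numbered 0 (percentile score), 0 (p), 0 (at least 1 library per group), 4 (500 bp), 21 (equal numbers), 0 (name style) and 0 to 83 without a library, the 83 without ctrl. replicate 1. In cal. res. against CORT they numbered 65 (median centring), 10 (p), 7 (at least 1 library per group), 12 (500 bp), 5 (name style) and 0 to 107 without a library, the 107 without either ctrl. library. With a replicate block the calls were 6, 8 and 27. The number pairs nothing in these labels, so the block says nothing of effect size. Rpl36 in cal. res. against CORT reversed to -0.72 (percentile score) and -0.18 (name style), and ran from -0.18 to 0.71 without a library. The cause was not tested.

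Depth is unknown, the members' peaks rest on medians of 11 to 20.5 fragments, and each group has 2 libraries. A promoter without a peak was not called at that depth and threshold, which does not show that GR is absent there.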
